A study of Mus musculus with 13 samples.

Results

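The genes described are the cyclins, kinases and kinase inhibitors that control passage through G1, in mouse embryonic stem cells (mESCs) with and without induction of CTCF S224E, a form of the chromatin protein CTCF in which a phosphorylated serine is replaced by glutamate to mimic the phosphate. They were chosen by symbol, not by a measured value, and are the D-type cyclins Ccnd1, Ccnd2 and Ccnd3, the E-type cyclins Ccne1 and Ccne2, the kinases Cdk4 and Cdk6, and the inhibitors Cdkn1b, Cdkn2a and Cdkn2b. These are 10 of the 24421 genes counted. All 10 were present in both deposited count tables under the same transcript, and all 10 had reads in every library.

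RNA came from F1-2.1 cells, a female mESC line of the strain cross CAST/Ei x 129/Sv/Jae, carrying a Tet-on CTCF S224E transgene that adds a 3xFLAG tag and co-expresses EGFP. Cells were kept on γ-irradiated fibroblast (MEF) feeders and grown for 6 days with 1 μg/mL doxycycline (+dox, 2 libraries) or with no dox (−dox, 2 libraries). Both groups carry the transgene, and all libraries come from 1 clone (A2), with polyadenylated RNA from 2 biological replicates. Cells given dox but lacking the transgene were not analysed here, so the effects of dox and of CTCF S224E cannot be told apart.

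In G1, D-type cyclins bind Cdk4 or Cdk6, and the kinase complexes phosphorylate the pocket proteins of the Rb family, which releases E2F transcription factors. E2F factors drive the E-type cyclins, which activate Cdk2 and lead the cell into S phase. The INK4 inhibitors, made from Cdkn2a and Cdkn2b, block Cdk4 and Cdk6, while Cdkn1b encodes p27, which inhibits the Cdk2 complexes. Mouse ES cells are known for a short G1, with high Cdk2 activity and little control of entry into S phase by pocket proteins.

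The libraries held 22899107 and 23136603 counted reads with dox and 30206085 and 24620964 without. Replicates of a condition differed by more than counting noise, and +dox replicate 1 stood apart in genes of the feeder cell type. On the CPM scale (reads per 1000000 counted reads, with library sizes scaled by TMM), the summed level of 30 fibroblast genes was 4621 in this library and between 2131 and 2445 in the other 3. Fn1 weighed most in this sum, with 2326 and 1357 CPM with dox and 1238 and 1472 CPM without. In 22 of the 30, both +dox values lay above both −dox values, as in 4665 of the 20044 genes tested. Of the 30, 29 had a positive fitted log2 fold change, and 0 passed an adjusted p-value of 0.01 in edgeR or DESeq2, with 23 and 12 at an unadjusted p-value under 0.05. Over all genes tested, 17.8% in edgeR and 13.0% in DESeq2 had an unadjusted p-value under 0.05. Every gene of that list had at least 1 read over the 4 libraries together. Reads on chromosome Y genes, in a female line, came to 236 in +dox replicate 1 and to between 67 and 76 in the other libraries. The 20 pluripotency markers summed to 8740 and 9788 CPM with dox and to 7933 and 8416 CPM without, and each had reads in at least 1 library. Of the 20, 17 had a positive fitted log2 fold change, and 0 passed an adjusted p-value of 0.01 in edgeR or DESeq2. At an unadjusted p-value under 0.05, edgeR listed 10 of them and DESeq2 listed 10. Of 12 primitive streak markers, edgeR called 7 lower with dox, where it called 0.599% of all genes tested. In bulk RNA, fewer cells of a type and less RNA per cell cannot be told apart.

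None of the 10 G1 genes passed the test for a difference between +dox and −dox cells in a fit without a block for the replicate number. With the adjusted p-value required to lie below 0.01, edgeR's quasi-likelihood test called 0 of 10, where it called 0.599% of the 20044 genes tested, which are those counted in 1 library or more. DESeq2 also called 0 of 10, against 1.87% of all genes. At an unadjusted p-value under 0.05, edgeR listed 6 of the 10 (Ccnd2, Cdkn2a and Cdkn2b higher with dox, and Ccne2, Cdk6 and Cdkn1b lower), against 17.8% of all genes, and DESeq2 listed 3 (Cdk6, Cdkn2a and Cdkn2b), against 13.0%. The +dox and −dox values of 7 genes did not overlap, 4 with dox above and 3 with dox below, where 47.0% of all genes did not overlap. The median log2 fold change over the 10 genes was 0.10, and over all genes tested it was 0.01. With 2 libraries per condition, a p-value that misses the threshold does not show that a gene stayed level, and the 95% intervals of the log2 fold changes are given for this reason.

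**Figure D1:**
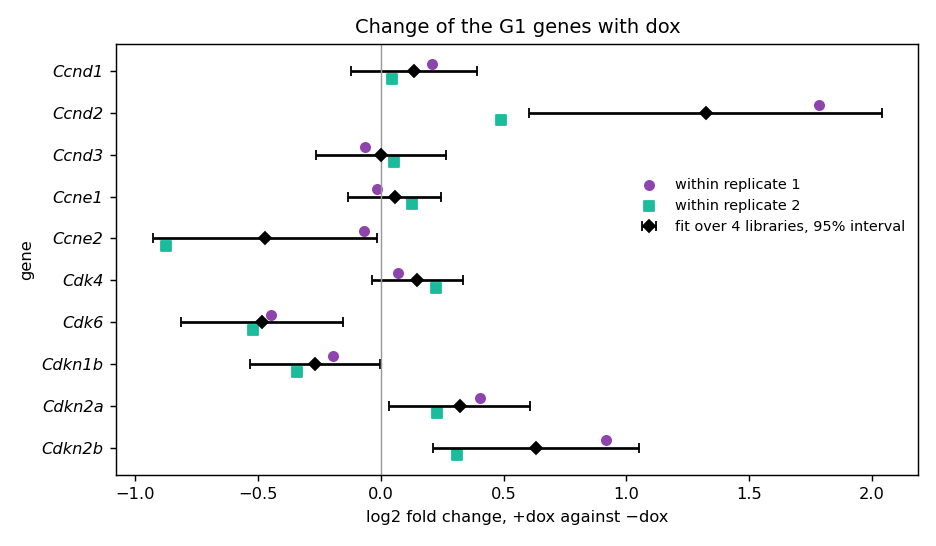
Log2 fold changes of the 10 G1 genes, +dox against −dox (horizontal axis). Diamonds are edgeR's fit over 4 libraries with its 95% interval, circles the difference within replicate 1 and squares within replicate 2. Libraries of the same number are set against each other, though no source used here says that they share a batch. Ccnd2 lies furthest from 0, with 1.79 in replicate 1 and 0.49 in replicate 2, while the intervals of Ccnd1, Ccnd3, Ccne1 and Cdk4 span 0.

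Levels of different genes were compared as RPKM, which is CPM divided by the kilobases of exon counted. They spanned a wide range, and the order was similar in both conditions at the top. Cdk4 was highest, with 370 ± 12.0 RPKM with dox and 334 ± 14.9 RPKM without (SD, n = 2). Ccne1 and Ccnd3 followed and could not be ranked against each other, since their ranges over the libraries overlapped in both conditions. Cdk6 had the lowest RPKM over the exon bases counted, with 1.86 ± 0.21 RPKM with dox and 2.60 ± 0.19 RPKM without (SD, n = 2). This rank rests on the long transcript used for counting. The same reads were also divided by the annotated exon length, a choice made after seeing the data. Cdk6 then came to 5.72 ± 0.63 RPKM with dox and 8.01 ± 0.60 RPKM without (SD, n = 2), above Ccne2 in both conditions and above Ccnd2 without dox. Cdkn1b likewise came to 8.69 and 10.5 RPKM, below Cdkn2b with dox, while Cdk4 stayed highest. Reads were not recounted over the annotated exons, so these values show how the ranks depend on the length used and are not measured levels. Ccnd1 came next after Ccnd3 and Ccne1, with Cdkn2a below it, and the ranges of these last genes overlapped with dox but not without. Below these lay Cdkn1b and Cdkn2b. The ranges of Cdkn1b, Cdkn2b and Ccnd2 overlapped from each to the next in +dox cells, whereas with the counted lengths every step in −dox cells from Ccnd1 down to Cdk6 was free of overlap, in the order Ccnd1, Cdkn2a, Cdkn1b, Cdkn2b, Ccne2, Ccnd2 and Cdk6. Of all genes tested, 99.7% had a mean RPKM below that of Cdk4. The part of fibroblast RNA in these levels, and in the shares given below, was not tested.

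**Figure D2:**
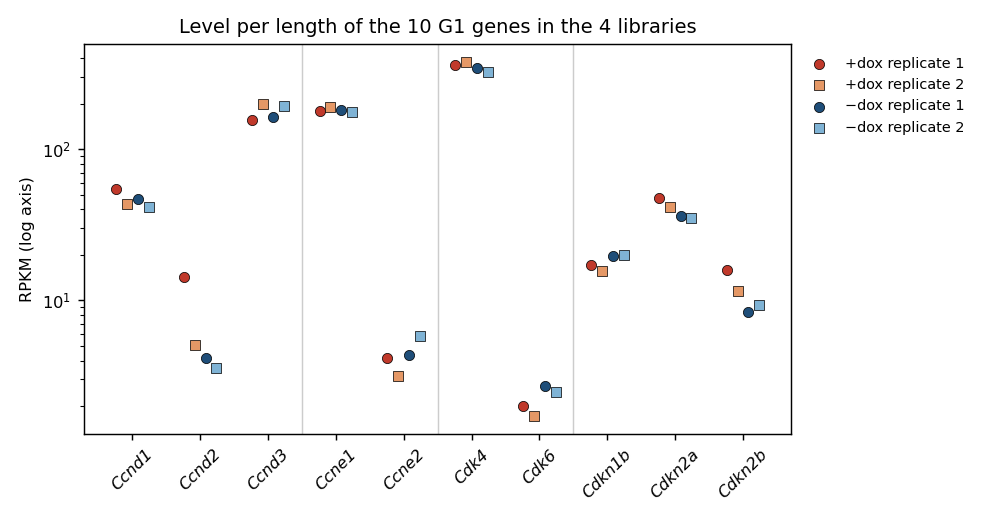
Level of each G1 gene in the 4 libraries, in RPKM on a log axis, with red points for +dox, blue points for −dox, circles for replicate 1 and squares for replicate 2. Vertical lines part D-type cyclins, E-type cyclins, kinases and inhibitors, and Cdk4, at 323 to 378 RPKM, lies above all other genes in every library.

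Ccnd3 made up most of the D-type cyclin RNA. Its share of the summed RPKM of the D-type cyclins was 69.3% and 80.6% with dox and 76.1% and 81.0% without. Ccnd1 held between 17.4% and 24.3%. Ccnd2 held 6.38% and 2.04% with dox and 1.94% and 1.51% without, so the high share was found in +dox replicate 1 alone. The sum of the D-type cyclins lay between 214 and 248 RPKM in the 4 libraries, and the conditions overlapped.

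Ccnd1 encodes cyclin D1, which growth factor signals induce in many cell types. It lies on chromosome 7 (152115836 to 152125830, minus strand, mm9), and 818 of its exon bases overlap exons of Oraov1 on the opposite strand. The 4644 and 3725 reads with dox and 5448 and 3964 reads without gave 206 and 163 CPM with dox and 178 and 158 CPM without. The groups overlap, and edgeR's log2 fold change was 0.13 ± 0.12 (SE), with a 95% interval from -0.12 to 0.39 and an adjusted p-value of 0.617. Without +dox replicate 1 it was -0.05, so the sign of this difference rests on that library. Oraov1 had 322 to 428 reads per library.

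Ccnd2 encodes cyclin D2 and lies on chromosome 6 (127075727 to 127101066, minus strand, mm9), where no annotated exon of another gene overlaps its exons. Its reads numbered 1858 and 666 with dox and 729 and 520 without. On the CPM scale these were 82.5 and 29.2 with dox and 23.9 and 20.7 without. Both +dox values lay above both −dox values, but +dox replicate 2 was far closer to the −dox libraries than to +dox replicate 1. The fitted log2 fold change was 1.32 ± 0.33 (SE), or 2.50-fold higher, with a 95% interval from 0.60 to 2.04, an unadjusted p-value of 0.00168 and an edgeR adjusted p-value of 0.0547. DESeq2 gave an adjusted p-value of 0.288. Within replicate 1 the log2 difference was 1.79 and within replicate 2 it was 0.49. Leaving out +dox replicate 1, the log2 fold change was 0.38, and leaving out +dox replicate 2 it was 1.89. Without −dox replicate 1 or −dox replicate 2 it was 1.43 and 1.23. Each of these fits leaves 1 library in a group, which is assumed to vary like the libraries of the other group.

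The genes closest to Ccnd2 in their pattern over the 4 libraries were sought, because it had the lowest p-value of the G1 genes. Among 13910 other genes whose mean level reached 1 CPM, the smallest Euclidean distances of mean-centred log2 CPM were to Col5a2 (0.055), Aebp1 (0.075) and Myh11 (0.092). Col5a2, a collagen gene and a member of the fibroblast list, had 112 and 40.0 CPM with dox and 32.5 and 29.5 CPM without. Aebp1, whose protein is found in the matrix of connective tissue, had 192 and 66.7 CPM with dox and 52.7 and 49.1 CPM without. Myh11, the smooth muscle myosin heavy chain, had 8.84 and 3.33 CPM with dox and 2.65 and 2.35 CPM without. In all these genes, as in Ccnd2, +dox replicate 1 was highest and +dox replicate 2 came next. This order follows from their selection by closeness to Ccnd2 and is not separate evidence. The median log2 difference of the 30 fibroblast genes was 1.49 in replicate 1 and 0.28 in replicate 2, and their median fitted log2 fold change was 1.19 with all libraries and 0.34 without +dox replicate 1. The part of fibroblast RNA in the Ccnd2 difference was not tested.

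**Figure D3:**
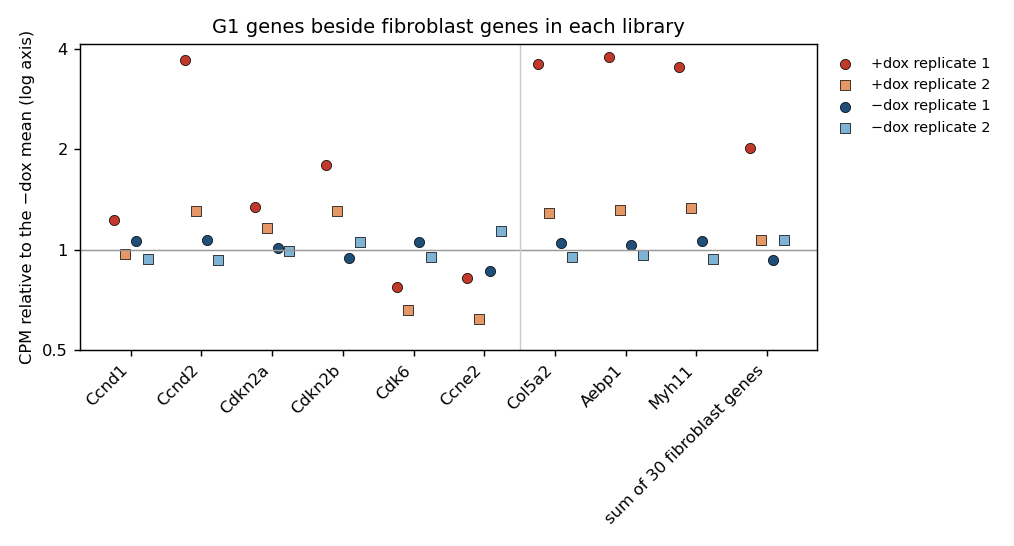
CPM in each library relative to the mean of the −dox libraries, on a log axis, for 6 of the G1 genes (left of the line), the genes closest to Ccnd2 in pattern, and the sum of 30 fibroblast genes. Red points are +dox and blue points −dox, circles replicate 1 and squares replicate 2, and +dox replicate 1 is highest for Ccnd2, Cdkn2b, Cdkn2a and Ccnd1 and for the genes right of the line, but not for Cdk6 and Ccne2. Ccnd3, Ccne1, Cdk4 and Cdkn1b are not drawn, and +dox replicate 1 was not the highest library for any of them. The single genes right of the line were selected for their closeness to Ccnd2 in these libraries.

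The study used a region inside Ccnd2 as a positive control for CTCF binding in ChIP-qPCR. Its primers are shown because they place a CTCF site of the study within a gene of the G1 set.
Ccnd2 forward: ctctttgcgttctaggcaattc
Ccnd2 reverse: tgaactgagccctttgtgag
In mm9 the forward primer matches the plus strand at chr6:127097842-127097863 and the reverse primer the minus strand at chr6:127097925-127097944. Together they bound 103 bases that end 3122 bases downstream of the Ccnd2 start site, within the gene and outside its annotated exons. Binding there was not analysed here.

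Ccnd3 encodes cyclin D3 and lies on chromosome 17 (47730416 to 47736637, plus strand, mm9). Its 353 exon bases shared with Bysl on the opposite strand make its counts uncertain if reads were counted without regard to strand, since Bysl had 5061 to 7024 reads per library. Ccnd3 had 6904 and 8992 reads with dox and 9797 and 9531 without. These gave 307 and 394 CPM with dox and 321 and 380 CPM without. The groups overlap fully, with replicate 1 lower than replicate 2 in each condition. The log2 fold change was -0.00 ± 0.12 (SE), with a 95% interval from -0.26 to 0.26 and an edgeR adjusted p-value of 1.00. Its sign turned under other settings, all of which stayed between -0.19 and 0.17.

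The E-type cyclins, which activate Cdk2, were unequal in level. Ccne1 made up between 96.8% and 98.4% of their summed RPKM in every library. It lies on chromosome 7 (38883003 to 38892509, minus strand, mm9), and had 7790 and 8456 reads with dox and 10694 and 8510 without. On the CPM scale, Ccne1 was at 346 and 370 with dox and at 350 and 339 without, so the groups overlap. Its log2 fold change was 0.06 ± 0.09 (SE), with a 95% interval from -0.13 to 0.24 and an edgeR adjusted p-value of 0.771.

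Ccne2, on chromosome 4 (11118856 to 11131926, plus strand, mm9), had 283 and 217 reads with dox and 403 and 439 without. These came to 12.6 and 9.50 CPM with dox and 13.2 and 17.5 CPM without. Both +dox values lay below both −dox values, though the replicate 1 values of the conditions were close. The log2 fold change was -0.47 ± 0.21 (SE), with a 95% interval from -0.93 to -0.02, an unadjusted p-value of 0.0430 and an edgeR adjusted p-value of 0.259. Within replicate 1 the log2 difference was -0.07 and within replicate 2 it was -0.88. Exons of Ints8 on the opposite strand cover 609 of its exon bases, and Ints8 had 1674 to 2557 reads per library, more than Ccne2 in each. The Ccne1 to Ccne2 ratio of RPKM was 42.7 and 60.4 with dox and 41.2 and 30.1 without.

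The kinases Cdk4 and Cdk6, which share the D-type cyclins as partners, also differed in level, with Cdk4 making up between 99.2% and 99.5% of their summed RPKM. With the same reads, not recounted, divided by annotated lengths, the share was between 96.4% and 97.9%. Cdk4 lies on chromosome 10 (126500659 to 126504338, plus strand, mm9) and had 10864 and 11537 reads with dox and 14049 and 10835 without. Its 483 and 505 CPM with dox lay above the 460 and 432 CPM without. The log2 fold change was 0.15 ± 0.09 (SE), with a 95% interval from -0.04 to 0.33 and an edgeR adjusted p-value of 0.410.

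Cdk6, on chromosome 5 (3343893 to 3531005, plus strand, mm9), had 519 and 450 reads with dox and 962 and 711 without. On the CPM scale it was at 23.1 and 19.7 with dox and at 31.5 and 28.3 without. Both +dox values lay below both −dox values. The log2 difference was -0.45 in replicate 1 and -0.52 in replicate 2, where the pairing of libraries by number is not settled. The log2 fold change was -0.49 ± 0.15 (SE), or 1.40-fold lower, with a 95% interval from -0.81 to -0.16, an unadjusted p-value of 0.00735 and an edgeR adjusted p-value of 0.109. DESeq2 gave an adjusted p-value of 0.0870. Leaving out +dox replicate 1, the log2 fold change was -0.60 and edgeR's adjusted p-value 0.0171, and leaving out +dox replicate 2 they were -0.38 and 0.253. Without −dox replicate 1 or −dox replicate 2 the adjusted p-values were 0.564 and 0.670, and 0 of these 4 fits passed the threshold. The Cdk4 to Cdk6 ratio of RPKM was 180 and 221 with dox and 126 and 131 without, so it did not overlap between the conditions, and its size depends on the lengths used. The transcript used for counting was longer than the annotated model here (11512 against 3735 exon bases), which does not bear on the comparison between conditions. Of the exon bases of the annotated model, 60 overlap Gm17590 on the opposite strand. Counted exon bases outside that model were not checked for overlap.

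Of the inhibitors, Cdkn1b (p27) was lower and the INK4 genes were higher with dox, none past the threshold. Cdkn1b lies on chromosome 6 (134870419 to 134875543, plus strand, mm9), 7769352 bases from Ccnd2. It had 932 and 862 reads with dox and 1448 and 1202 without, or 41.4 and 37.7 CPM with dox and 47.4 and 47.9 CPM without. The groups did not overlap. Its log2 fold change was -0.27 ± 0.12 (SE), with a 95% interval from -0.53 to -0.00, an unadjusted p-value of 0.0484 and an edgeR adjusted p-value of 0.276.

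Cdkn2a and Cdkn2b are neighbours on the minus strand of chromosome 4, with 11674 bases between them. Cdkn2a (88920377 to 88940523, mm9) makes the INK4 protein p16Ink4a and, from another first exon and reading frame, p19Arf, which stabilizes p53. The counted transcript (924 exon bases) had the outer ends of an annotated form of 929 exon bases, which begins at 88940523. The form beginning at 88928096 shares 643 of its 850 exon bases with that annotated form, so the counts do not separate p16Ink4a from p19Arf RNA. Cdkn2a had 994 and 872 reads with dox and 1019 and 817 without, or 44.2 and 38.2 CPM with dox and 33.4 and 32.6 CPM without. Both +dox values lay above both −dox values. The log2 fold change was 0.32 ± 0.13 (SE), with a 95% interval from 0.03 to 0.61, an unadjusted p-value of 0.0316 and an edgeR adjusted p-value of 0.219. Without +dox replicate 1 it was 0.21, with an edgeR adjusted p-value of 0.539.

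Cdkn2b encodes p15Ink4b and lies at 88952198 to 88956941. Its reads numbered 493 and 365 with dox and 353 and 323 without, and the CPM values were 21.9 and 16.0 with dox and 11.6 and 12.9 without. Again both +dox values lay above both −dox values, and +dox replicate 1 was the highest. The log2 fold change was 0.63 ± 0.19 (SE), or 1.55-fold higher, with a 95% interval from 0.21 to 1.05, an unadjusted p-value of 0.00634 and an edgeR adjusted p-value of 0.102. DESeq2 gave an adjusted p-value of 0.0739. The log2 difference was 0.92 within replicate 1 and 0.31 within replicate 2. Leaving out +dox replicate 1, the value fitted by edgeR was 0.39, and leaving out +dox replicate 2 it was 0.84. Without −dox replicate 1 or −dox replicate 2 it was 0.56 and 0.71. The summed level of both genes was 63.5 and 52.8 RPKM with dox and 44.4 and 44.5 RPKM without. The part of fibroblast RNA in these differences was not tested.

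E2F factors bind DNA at words such as TTTCCCGC, TTTCGCGC, TTTGCCGC and TTTGGCGC, and these words were searched on both strands of RefSeq promoters (GRCm38.p6, 250 bases before to 50 after each start site). Of 32851 promoters, 2.26% held at least 1 of the words, and of 27025 genes, 2.60% had such a promoter. Promoters were matched for 7 of the 10 genes (Ccnd3, Ccne1, Cdk4, Cdk6, Cdkn1b, Cdkn2a and Cdkn2b). A word was found in 1 gene, Cdkn2a, in the promoter of the upstream of its start sites, where it lay 99 bases before the start. The stretch is shown, with the word in capitals, because it is the single match among the G1 genes.
Cdkn2a promoter: tgggaagcTTTCCCGCgcgactgg
It lies at chr4:89294703-89294726 on the minus strand of GRCm38.p6. A match of letters is a description and does not show that a factor binds there.

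Around these genes, 46 other genes of the G1/S pathway and its upstream inputs were read from the same fit. edgeR called 1 of the 46 higher and 1 lower with dox, where it called 0.599% of all genes. At an unadjusted p-value under 0.05 it listed 10 (4 higher and 6 lower), a share near the 17.8% of all genes. Their median log2 fold change was 0.01, the same as over all genes tested to this precision. Cdkn1c, which encodes p57, an inhibitor of the same family as p27, had 24.7 and 23.1 CPM with dox and 11.7 and 11.4 CPM without. It rose by a log2 fold change of 1.05 ± 0.16 (SE), with an edgeR adjusted p-value of 0.00577 and 8.59e-06 from DESeq2. Mycl, a member of the Myc family of growth regulators, had 9.82 and 9.63 CPM with dox and 24.3 and 25.6 CPM without. Its log2 fold change was -1.36 ± 0.16 (SE), with an edgeR adjusted p-value of 0.00146 and 3.45e-09 from DESeq2. In both genes the replicates lay close together and the groups far apart. Leaving out either −dox library, edgeR called neither gene, and it called 0 of all genes tested.

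Cdkn1a, which encodes p21, the inhibitor induced by p53, had 261 and 261 CPM with dox and 190 and 190 CPM without. Its log2 fold change was 0.46 ± 0.09 (SE), with an edgeR adjusted p-value of 0.0196, which missed the threshold, and 4.18e-04 from DESeq2, which passed it. Leaving out any 1 library, edgeR's log2 fold change for Cdkn1a lay between 0.45 and 0.46. The kinase Cdk2, the partner of the E-type cyclins, had a log2 fold change of -0.07 and an edgeR adjusted p-value of 0.793. The pocket protein gene Rb1 had 0.06 and 0.867 for the same measures, and E2f1, which Rb holds back, had -0.24 and 0.220. For Ccna2, the cyclin that follows the E-type cyclins in S phase, they were -0.06 and 0.735. Mycn, which was at 541 to 632 CPM with dox and 501 to 522 CPM without, had 0.20 and 0.299.

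By group, edgeR called 0 of 6 for Cdk2 and its activators, 0 of 3 pocket proteins, 0 of 10 E2F and DP factors, 0 of 8 genes for the turnover of G1 cyclins and inhibitors, and 0 of 11 E2F targets of S phase entry. At an unadjusted p-value under 0.05 it listed 1, 0, 2, 0 and 2 genes of these groups, and DESeq2 listed 1, 0, 2, 0 and 1, where the share over all genes was 17.8% in edgeR and 13.0% in DESeq2. It called 1 of 4 other CDK inhibitors (Cdkn1c) and 1 of 3 Myc genes (Mycl). Bmi1, a Polycomb gene known to repress Cdkn2a and named here after its values were seen, had 18.4 and 17.1 CPM with dox and 11.4 and 11.8 CPM without, a log2 fold change of 0.61 ± 0.17 (SE) and an edgeR adjusted p-value of 0.0789. It was higher with dox in both replicates, as Cdkn2a was.

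**Figure D4:**
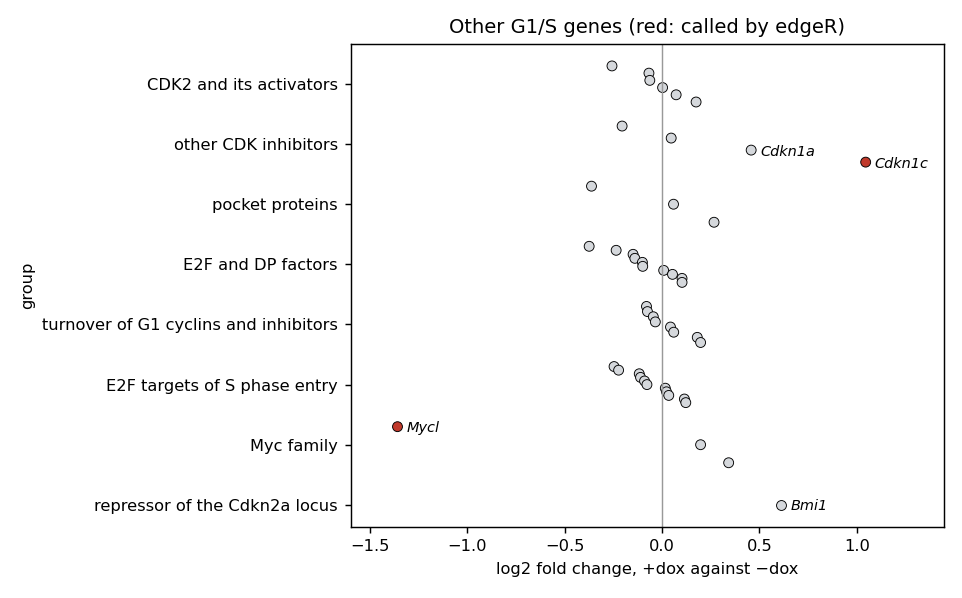
Log2 fold change of 46 other G1/S genes, +dox against −dox (horizontal axis), in rows by group, with 1 point per gene. Red points, Cdkn1c and Mycl, had an adjusted p-value under 0.01 in edgeR, and the remaining genes lie between -0.37 and 0.61.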

How the data were processed

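Reads were trimmed (cutadapt) and mapped to mm9 (TopHat2) by the authors, who dropped PCR duplicates, counted uniquely mapped reads over gene exons (HOMER) and deposited the raw counts, 1 table per replicate. Tool versions and the use of strand are not given in the sources used here, so overlapping genes on opposite strands are uncertain. Tables were joined by symbol. Genes counted in 1 library or more were tested with edgeR 4.0.16 (glmQLFit and glmQLFTest at their defaults, TMM, no block, R 4.3.3), with Benjamini-Hochberg adjustment over 20044 genes and a threshold of 0.01, two-sided. DESeq2 1.42.0 was the alternative, and its adjusted p-values use its independent filtering. Other alternatives were adjusted deviances, a replicate block, other scaling, leaving out each library, filterByExpr, a threshold of 0.05 and, added after seeing the data, annotated exon lengths. Standard errors come from the test statistic, and log2 differences within a replicate use a prior count of 2. Those differences set libraries of the same number against each other, and another pairing would give other values. The fit was tested on simulated data with 200 changed genes. At log2 changes of 0.5, 1 and 2, edgeR called 22, 144 and 197 of them, and DESeq2 called 40, 170 and 198. Most changes of the smallest size were therefore missed.

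The genes, lists and tests were chosen with earlier results of these data known, including the results of edgeR's default and adjusted deviances. All G1 genes are described. Of the pathway lists, genes past the threshold in edgeR or DESeq2 and Cdkn1a, Cdkn1c, Cdk2, Rb1, E2f1, Ccna2 and Mycn are named, and Bmi1 was added after its values were seen, with the 3 genes closest in pattern to the G1 gene of lowest p-value. Exons were taken from the mm9 annotation. ChIP-seq and Hi-C samples were not analysed here.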

Additional observations from a re-analysis of the deposited data

How the results depend on the processing

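Refitting the 10 G1 genes under other settings, 100 values kept direction and side of the threshold, 3 passed it and 7 turned direction. The direction of Ccnd3 turned under DESeq2 (0.0050), adjusted deviances (2.99e-05), DESeq2's size factors (0.0050) and filterByExpr (0.0024), and its values leaving out 1 library ran from -0.19 to 0.17. Those of Ccnd1 ran from -0.046 (without +dox replicate 1) to 0.29.

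With the replicate block, edgeR called 1 G1 gene (Ccnd2, log2 fold change 1.16, adjusted p-value 3.64e-04) in place of 0, and also Cdkn1a (adjusted p-value 0.00107) and 786 genes in all. DESeq2 with the block called 264 genes and 0 G1 genes, with Ccnd2 at an adjusted p-value of 0.356. No source used here says that a replicate number marks a shared batch. Deviations of same-numbered libraries correlated at 0.20 across genes, and with 2 pairs this does not settle whether they are paired. The block changed no other call among the G1 and pathway genes.

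Over all genes, 120 were called by edgeR, 375 by DESeq2, 0 with adjusted deviances (3254 at an unadjusted p-value under 0.05), 11 with filterByExpr, 573 at a threshold of 0.05 and between 0 and 992 leaving out 1 library. G1 genes called ran from 0 to 2 leaving out 1 library, with Ccnd2 and Cdkn2b called without +dox replicate 2. The 2 pathway genes called became 0 with adjusted deviances and with filterByExpr, 1 with total counts, and 0 to 3 leaving out 1 library. The causes were not tested. Without −dox replicate 1 or −dox replicate 2, 0 genes were called in all, and 1753 and 1450 had an unadjusted p-value under 0.05. The fewest reads stood behind Ccne2, with 217 to 439 per library.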
